A study of Mus musculus with 6 samples.

Results

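The Schlafen family of mouse macrophages was described here through its 7 genes in the deposited expression table, *Slfn1*, *Slfn2*, *Slfn3*, *Slfn4*, *Slfn5*, *Slfn8* and *Slfn9*. They were matched by gene symbol, as 7 of the 15415 genes listed, after the family had been picked with earlier results of these data known. All 7 reached a mean of at least 1 FPKM (reads divided by gene length and by all reads counted in a library) in a group, as 9030 genes did. Other Schlafen symbols (*Slfn10-ps*, *Slfn14*, *Slfnl1*) were not found among the genes listed. The libraries came from peritoneal exudate macrophages (PEMs), which are collected from the abdominal cavity after a starch injection. The 3 knockout libraries (called CKO) had the genotype LysM-Cre; Tim-4 fl/fl and the 3 control libraries had Tim-4 fl/fl, so both groups carry the floxed allele of *Timd4*, the gene of the phosphatidylserine receptor Tim-4, and Cre was made from the lysozyme gene *Lyz2*, which is active in myeloid cells in general. The study's mice were 6 to 8 weeks old. The labels name LPS as the treatment of all 6 samples, and the methods of the study describe 1 µg/ml LPS for 3.5 hours without stating that it was given to the cells sequenced. Whether the 3 libraries of a group were from separate mice is not stated, so p-values measure the spread between these libraries, which may be technical. In bulk RNA, fewer cells of a type and less RNA per cell cannot be told apart.

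Schlafen genes are found in mammals as a cluster of related genes that type I interferon induces in many immune cells. Their proteins share an amino-terminal Schlafen core, and the mouse family is divided by length into short members (*Slfn1*, *Slfn2*), intermediate members (*Slfn3*, *Slfn4*) and long members (*Slfn5*, *Slfn8*, *Slfn9*), of which the long ones carry a helicase-like domain at the carboxyl end. The family is best known for restraint of lymphocyte growth and for antiviral activity of some members, *Slfn2* is needed for the quiescence of T cells, and *Slfn4* is known as a gene of the myeloid lineage that LPS and interferon induce in macrophages.

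The promoters are shown because the family is interferon-induced and because its members varied together to unequal extents. In the RefSeq promoter table (build GRCm38.p6, 250 bases before to 50 after each start site), all 7 genes were found on chromosome 11. The submitters' processing notes name mm9, so these coordinates belong to the RefSeq table and not to the expression files. The capitals mark the interferon-stimulated response element searched for on both strands, GAAANNGAAA, in which N is any base. The promoters of the 3 long members each held this motif, and the promoter of *Slfn4*, whose levels followed another pattern, is given for comparison.
Slfn5, chr11:82951852-82952151, plus strand: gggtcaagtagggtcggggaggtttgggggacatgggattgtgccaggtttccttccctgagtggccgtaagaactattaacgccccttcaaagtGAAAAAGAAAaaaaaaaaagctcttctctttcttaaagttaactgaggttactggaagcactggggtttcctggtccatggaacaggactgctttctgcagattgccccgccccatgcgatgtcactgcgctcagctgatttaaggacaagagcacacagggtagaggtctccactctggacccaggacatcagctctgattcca
Slfn8, chr11:83020761-83021060, minus strand: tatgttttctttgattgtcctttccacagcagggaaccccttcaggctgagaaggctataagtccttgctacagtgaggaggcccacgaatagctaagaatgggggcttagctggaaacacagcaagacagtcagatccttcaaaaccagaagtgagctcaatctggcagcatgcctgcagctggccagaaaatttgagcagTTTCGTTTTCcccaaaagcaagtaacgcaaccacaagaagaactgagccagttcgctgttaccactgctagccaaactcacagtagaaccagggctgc
Slfn9, chr11:82991781-82992080, minus strand: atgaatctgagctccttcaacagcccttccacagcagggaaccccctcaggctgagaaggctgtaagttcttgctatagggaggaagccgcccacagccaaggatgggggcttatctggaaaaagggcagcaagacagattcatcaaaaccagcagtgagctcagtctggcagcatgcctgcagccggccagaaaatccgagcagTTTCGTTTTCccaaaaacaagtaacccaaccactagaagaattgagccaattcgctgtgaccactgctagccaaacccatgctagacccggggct
Slfn4, chr11:83174936-83175235, plus strand: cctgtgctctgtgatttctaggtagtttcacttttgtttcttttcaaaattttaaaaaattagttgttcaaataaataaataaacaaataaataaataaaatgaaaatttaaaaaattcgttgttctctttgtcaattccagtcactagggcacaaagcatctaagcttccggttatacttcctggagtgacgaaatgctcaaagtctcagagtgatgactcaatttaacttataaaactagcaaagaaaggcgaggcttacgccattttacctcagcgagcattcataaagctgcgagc

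The site of *Slfn8* and that of *Slfn9* had the same letters, TTTCGTTTTC as read along the gene, and began at -48 and -45 from the start site. A second *Slfn8* start in the table placed the same site at -136. The match of *Slfn5*, GAAAAAGAAA at -155, ran into a stretch of A. The motif was present in 3 of the 7 family promoters, in 17 of 26 promoters of listed interferon-stimulated genes that could be matched, in 4.24% of the tested genes with a promoter in the table and in 3.44% of all 32851 promoters. The promoters of *Slfn1*, *Slfn2*, *Slfn3* and *Slfn4* did not hold these letters in this window. Of these, *Slfn1* and *Slfn3* varied with the long members over the 6 libraries, with Pearson correlations of log2(FPKM + 1) from 0.972 to 0.994. The gamma-activated site, TTCNNNGAA, was in none of the 7 family promoters in 8.31% of tested genes, in 5 of 26 interferon-stimulated genes and in 8.30% of all promoters. The consensus NF-kB site was in the promoters of *Slfn1* and *Slfn9*, in 8.35% of tested genes, in 5 of 26 interferon-stimulated genes and in 5.81% of all promoters. These matches are a description of letters. *Slfn8* and *Slfn9* are close copies, so their sites are not independent.

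Between 36170767 and 42217558 reads per library were recovered from the deposited values. *Timd4* was at 0.333, 0.394 and 0.246 FPKM in CKO libraries 1 to 3, against 19.5, 12.05 and 1.19 FPKM in control libraries 1 to 3. It was thus lower in every library titled as knockout, while the genotype entries of the labels name the groups the other way round, and the titles were followed. *Lyz2*, the gene that carries Cre, was at 41.4, 4656 and 106 FPKM in the CKO libraries, against 7090 to 8482 FPKM in the controls. Control library 3 stood apart from the other controls, with *Timd4* at 7.52% of the mean of control libraries 1 and 2, and results are given below with and without it. Markers of several other cell types differed between the groups. Of the marker lists, 6 of 7 tested B cell genes, 5 of 5 mast cell genes, 3 of 6 genes of large resident peritoneal macrophages, 2 of 5 of small macrophages and monocytes, 2 of 4 neutrophil genes and 1 of 2 T cell genes passed the test as lower, and none as higher, where 4.74% of all tested genes passed as lower. Without control library 3 these counts were 6 of 7, 5 of 5, 6 of 6, 4 of 5, 3 of 4 and 1 of 2, where 8.47% of all tested genes passed as lower. The 3 mesothelial and fibroblast genes tested had log2 fold changes above 0 (median 0.98) and the one dendritic cell gene had one below 0 (-1.08). None of these passed, and no natural killer cell gene reached the filter. Of 8 general macrophage markers 1 passed as higher and 0 as lower. Their log2 fold changes were above 0 for 3 and below 0 for 5. At an unadjusted p under 0.05 by limma, 2 were higher and 3 lower. Their summed level, *Lyz2* included, was 2682 to 7277 FPKM in the CKO libraries and 9365 to 11148 FPKM in the controls. The summed level of a list was 11.5 to 12.6 FPKM in the CKO libraries and 36.2 to 134 FPKM in the controls for B cells, 1.89 to 2.27 against 38.2 to 49.3 FPKM for mast cells, 105 to 197 against 313 to 418 FPKM for large macrophages, 16.8 to 69.7 against 136 to 3463 FPKM for small macrophages and monocytes, 42.0 to 73.8 against 161 to 175 FPKM for neutrophils, and 1.34 to 2.14 against 2.98 to 11.6 FPKM for T cells. It was higher for mesothelial cells and fibroblasts, at 10.3 to 26.1 FPKM in the CKO libraries and 2.09 to 11.6 FPKM in the controls, with an overlap. Single genes made up much of some sums. In control libraries 1 to 3 *Retnla* was at 3428, 1507 and 98.5 FPKM (small macrophages and monocytes). *S100a8* was there at 171, 156 and 156 FPKM (neutrophils) and *Thbs1* at 257, 273 and 277 FPKM (large macrophages). Of the 5 small macrophage and monocyte genes tested, 4 had a log2 fold change below 0 and *Ly6c2* one above 0 (0.21, adjusted p = 0.892 by limma). The part of these cell types in the values below was not tested.

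*Slfn2* was the most abundant member and *Slfn9* the least abundant in all 6 libraries. In the CKO libraries the order of the FPKM levels was *Slfn2*, *Slfn5*, *Slfn8*, *Slfn1*, *Slfn4*, *Slfn3* and *Slfn9* each time, and the only neighbours whose ranges overlapped were *Slfn1* (97.6 to 143) and *Slfn4* (66.9 to 131). In control libraries 1 and 2 *Slfn4* stood above *Slfn8* and *Slfn1*, and in control library 3 it stood between them. Among the controls the ranges of *Slfn5*, *Slfn4*, *Slfn8* and *Slfn1* overlapped from neighbour to neighbour, as did those of *Slfn3* and *Slfn9*, whereas *Slfn2* lay above all. The low place of *Slfn9* depends on the gene length of 10874 bases that its FPKM implies. In reads, *Slfn9* had 2.53 to 4.38 times those of *Slfn3*, which has an implied length of 1816 bases.

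**Figure D1:**
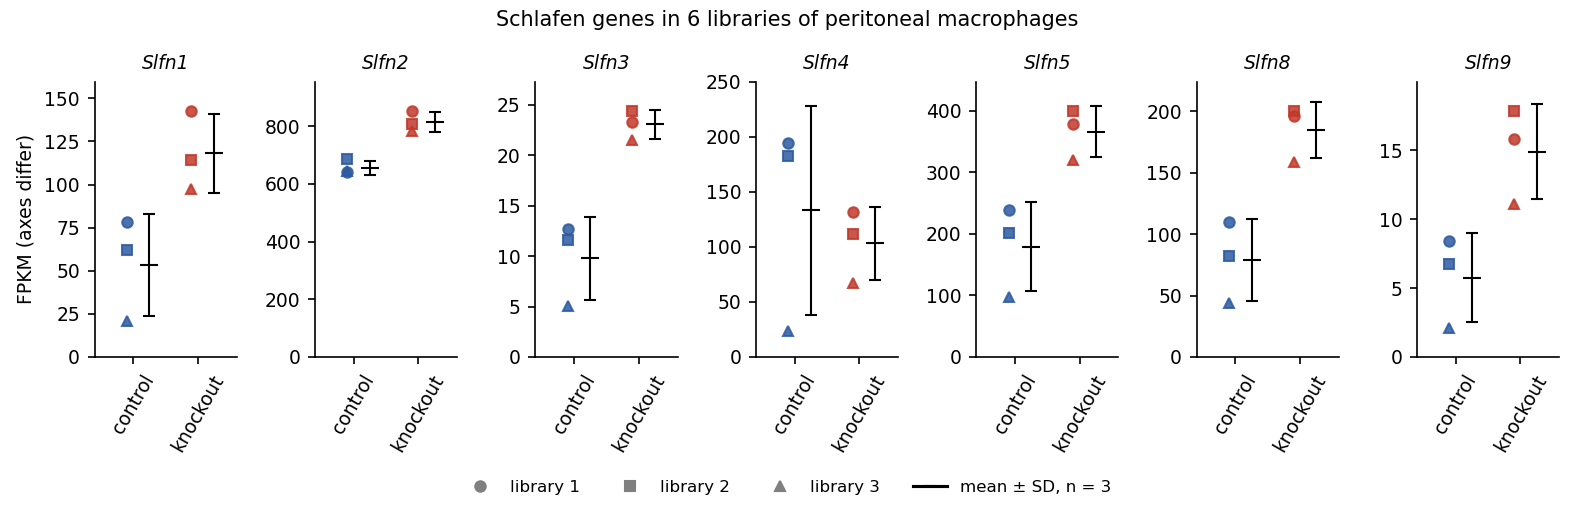
FPKM of each Schlafen gene in control (blue) and knockout (red) libraries, with library numbers as symbols and the mean ± SD (n = 3) as bars, on a linear axis from 0 that differs between genes. The CKO libraries lie above all controls for 6 genes, *Slfn4* is the exception, and control library 3 (triangle) is the lowest library for all but *Slfn2*.

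The short members are taken first. *Slfn1* was at 143, 114 and 97.6 FPKM in CKO libraries 1 to 3 (118 ± 22.8, SD, n = 3), against 78.0, 61.8 and 20.8 FPKM in control libraries 1 to 3 (53.5 ± 29.5, SD, n = 3). All CKO libraries lay above all controls, and control library 3 was the lowest by a wide margin. The log2 fold change was 1.30 (SE 0.45, 95% interval 0.24 to 2.37), which did not pass the threshold (adjusted p = 0.120 by limma, Benjamini-Hochberg adjustment) and passed it once the replicate number entered as a block (adjusted p = 0.0460).

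*Slfn2*, the member tied to T cell quiescence, was at 852, 806 and 783 FPKM in the CKO libraries (814 ± 35.2, SD, n = 3), against 640, 685 and 643 FPKM in the controls (656 ± 25.1, SD, n = 3). The groups did not overlap, but the step was small, with a log2 fold change of 0.31 (SE 0.12, 95% interval 0.04 to 0.58, adjusted p = 0.137 by limma). It was the one member whose level in control library 3 was close to that of the other controls, at 97.1% of their mean. Of the 7 T cell markers listed, 5 were under 1 FPKM in all 6 libraries, *Cd3e*, *Cd3g* and *Cd3d* among them. *Lck*, a kinase of the T cell receptor pathway, was at 0.657 to 1.70 FPKM over the 6 libraries. *Cd2*, an adhesion molecule of T cells, was at 0.342 to 0.603 FPKM in the CKO libraries, against 7.88, 4.94 and 1.81 FPKM in control libraries 1 to 3 (adjusted p = 0.0326 by limma).

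Of the intermediate members, *Slfn3* was at 23.2, 24.4 and 21.5 FPKM in the CKO libraries (23.0 ± 1.43, SD, n = 3), against 12.7, 11.6 and 5.04 FPKM in the controls (9.77 ± 4.13, SD, n = 3). The groups were separate, and the CKO libraries were close to each other. The log2 fold change of 1.24 (SE 0.30, 95% interval 0.54 to 1.95) lay just outside the threshold (adjusted p = 0.0522 by limma) and inside it with the block (adjusted p = 0.0319).

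*Slfn4* was at 131, 112 and 66.9 FPKM in the CKO libraries (103 ± 33.0, SD, n = 3), against 194, 182 and 23.4 FPKM in the controls (133 ± 95.2, SD, n = 3). It was the only member whose groups overlapped: control libraries 1 and 2 were above every CKO library, and control library 3 was below every one. The mean FPKM was lower in the CKO group, while the log2 fold change, 0.07 (SE 0.77, 95% interval -1.73 to 1.88, adjusted p = 0.962 by limma), was slightly positive. Without control library 3 the log2 fold change was -0.91 (95% interval -1.56 to -0.26), with an unadjusted p of 0.0131 and an adjusted p of 0.0713 by limma, so neither direction passed the threshold.

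The long members differed from *Slfn4* and resembled each other. *Slfn5*, the second most abundant member, was at 379, 399 and 319 FPKM in the CKO libraries (366 ± 41.6, SD, n = 3), against 238, 202 and 98.1 FPKM in the controls (179 ± 72.7, SD, n = 3). All CKO libraries were higher, the log2 fold change was 1.11 (SE 0.32, 95% interval 0.37 to 1.86), and the adjusted p was 0.0761 by limma and 0.0372 with the block. Reads on *Slfn5os*, an antisense transcript of this locus, came to at most 0.164% of those on *Slfn5*, in control library 2. Whether the counting used strand is not given in the sources used here.

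*Slfn8* was at 196, 200.3 and 159 FPKM in the CKO libraries (185 ± 22.9, SD, n = 3), against 110.2, 82.5 and 44.0 FPKM in the controls (78.9 ± 33.3, SD, n = 3). The groups did not overlap. The log2 fold change was 1.31 (SE 0.32, 95% interval 0.57 to 2.05), and *Slfn8* was, with *Slfn3*, the member nearest to the threshold (adjusted p = 0.0521 by limma and 0.0250 with the block).

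*Slfn9* was at 15.8, 17.8 and 11.1 FPKM in the CKO libraries (14.9 ± 3.47, SD, n = 3), against 8.39, 6.78 and 2.13 FPKM in the controls (5.76 ± 3.25, SD, n = 3). Again all CKO libraries were higher, and control library 3 was far below the others. Its log2 fold change was 1.35 (SE 0.41, 95% interval 0.40 to 2.31), the highest value in the family, with an adjusted p of 0.0858 by limma and 0.0257 with the block.

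Counted over the family, 0 of 7 genes passed an adjusted p of 0.05 by limma, where 7.31% of all tested genes passed in either direction and 2.57% as higher in the CKO libraries. At an unadjusted p under 0.05, 6 of 7 were higher, against 9.93% of all tested genes. With the replicate number as a block 5 of 7 passed as higher (*Slfn1*, *Slfn3*, *Slfn5*, *Slfn8* and *Slfn9*), against 3.9% of all tested genes. Whether the numbers pair the libraries is not established. The CKO libraries lay above all controls in 6 of 7 members, against 11.1% of all tested genes. The median log2 fold change was 1.24 over the 7 members and -0.11 over all tested genes. That shift of all genes went to 0.01 when the libraries were rescaled by the median of ratios, and no member changed direction or passed the threshold under that scaling. Genes within a family are not replicates of a condition, and an exact two-sided permutation test of 3 libraries against 3 cannot give a p below 0.1 for any one of them.

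**Figure D2:**
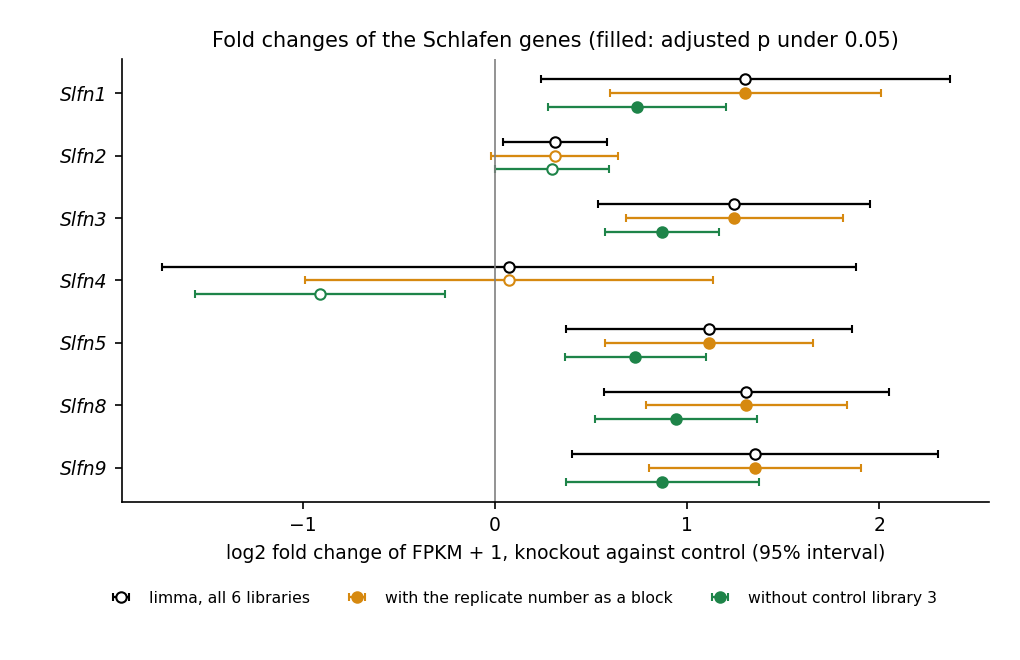
Log2 fold change of FPKM + 1 (knockout against control) of each Schlafen gene with its 95% interval, from limma on all 6 libraries (black), with the replicate number as a block (orange) and without control library 3 (green). Filled points had an adjusted p under 0.05, as 5 genes did in each of the orange and green fits and none did in black; *Slfn4* moved from 0.07 to -0.91 without control library 3.

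Control library 3 was low for most members. Its level was 29.8% of the mean of control libraries 1 and 2 for *Slfn1*, 41.5% for *Slfn3*, 12.4% for *Slfn4*, 44.6% for *Slfn5*, 45.7% for *Slfn8* and 28.1% for *Slfn9*. Over all tested genes the median of this measure was 109%, and 6.09% of genes were under 50%. It was also the lowest of the 6 libraries for 6 of 7 members, as it was for 13.3% of all tested genes. Without it, the log2 fold changes were smaller but passed the threshold for 5 members, against 5.68% of all tested genes passing as higher and 8.47% as lower. They were then 0.74 for *Slfn1* (adjusted p = 0.0493), 0.87 for *Slfn3* (adjusted p = 0.00759), 0.73 for *Slfn5* (adjusted p = 0.0262), 0.94 for *Slfn8* (adjusted p = 0.0187) and 0.87 for *Slfn9* (adjusted p = 0.0395), all by limma. In the same fit *Slfn2* was at 0.30 (adjusted p = 0.163). Without control library 1, which had the highest level of the 3 controls for all members but *Slfn2*, 4 members passed (*Slfn3*, *Slfn5*, *Slfn8* and *Slfn9*), against 3.08% of all tested genes passing as higher. The same 4 had an adjusted p under 0.1 with all libraries, against 5.66% of all tested genes. Leaving out any other library left 0 members past the threshold by limma, with 4 to 6 at an unadjusted p under 0.05. Few genes of any kind passed as higher in most of these fits: 0.133% of all tested genes without CKO library 1, 0.199% without CKO library 2, 0.0111% without control library 2, and 1.92% without CKO library 3.

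The summed level of the family was 1740, 1674 and 1458 FPKM in CKO libraries 1 to 3 (1624 ± 147, SD, n = 3) and 1281, 1231 and 836 FPKM in control libraries 1 to 3 (1116 ± 244, SD, n = 3). The groups did not overlap in this sum. In reads, the 7 genes took 0.458% to 0.562% of each CKO library and 0.203% to 0.406% of each control library. The make-up of the family differed more among the controls than among the CKO libraries. *Slfn2* gave 48.2% to 53.7% of the summed FPKM in the CKO libraries and 49.9%, 55.6% and 76.9% in control libraries 1 to 3. *Slfn4* gave 7.54%, 6.68% and 4.59% in the CKO libraries, and 15.1%, 14.8% and 2.80% in the controls.

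**Figure D3:**
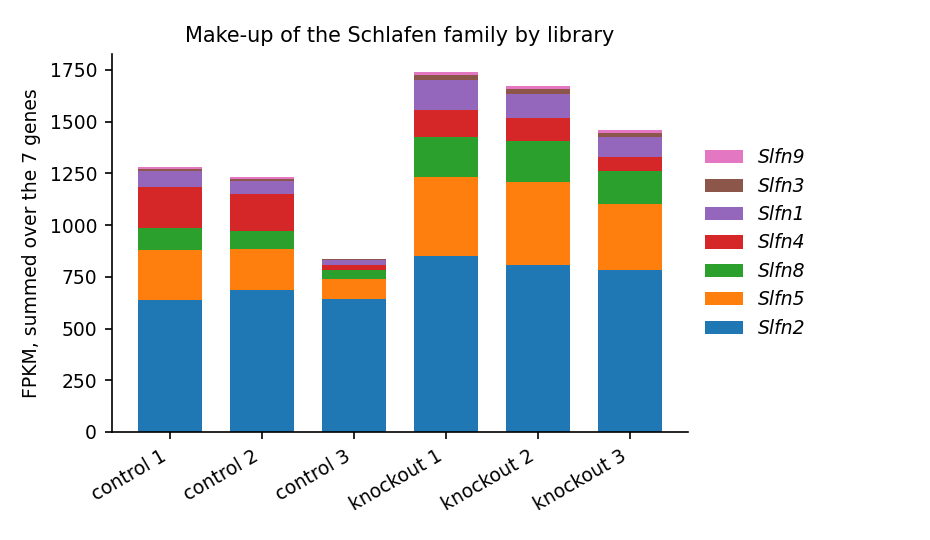
Stacked FPKM of the 7 Schlafen genes in each of the 6 libraries, on a linear axis from 0. The CKO libraries reach 1458 to 1740 FPKM and the controls 836 to 1281, *Slfn2* (bottom) is of similar height in all controls, and the *Slfn4* layer is thickest in control libraries 1 and 2.

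Ratios of pairs of members within each library set the genes against each other without regard to scaling. The 3 pairs were chosen after the values were seen. *Slfn4* to *Slfn3* was 5.65, 4.59 and 3.11 in the CKO libraries and 15.3, 15.7 and 4.64 in the controls. Control libraries 1 and 2 were well above the rest and control library 3 lay among the CKO libraries, so the groups overlapped (exact two-sided permutation p = 0.2, Benjamini-Hochberg adjusted p = 0.3 over 3 pairs). *Slfn2* to *Slfn5* was 2.25, 2.02 and 2.45 in the CKO libraries and 2.69, 3.39 and 6.56 in the controls, with no overlap (exact permutation p = 0.1, the smallest this design allows, adjusted p = 0.3). *Slfn8* to *Slfn9* was 12.4, 11.2 and 14.3 in the CKO libraries and 13.1, 12.2 and 20.7 in the controls (exact permutation p = 0.6, adjusted p = 0.6).

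The levels of *Slfn1*, *Slfn3*, *Slfn5*, *Slfn8* and *Slfn9* varied together over the 6 libraries, with Pearson correlations of log2(FPKM + 1) between 0.972 and 0.996 for their pairs. *Slfn2* correlated with these 5 genes at 0.782 to 0.860. *Slfn4* correlated with them at 0.530 to 0.689 and with *Slfn2* at 0.167. Control library 3 was the lowest library for *Slfn4* and for these 5 genes, and no correlation was computed without it. In control libraries 1 and 2 *Slfn4* was above every CKO library, while these 5 genes were below every one. The correlations are a description, since all points share the same 6 libraries and the difference between the groups enters them. They did not follow the likeness of the sequences. The longest reading frames of *Slfn3* and *Slfn4* were identical at 92.7% of 1788 aligned bases, and those of *Slfn8* and *Slfn9* at 92.7% of 2733 aligned bases. Over all 6 libraries, control library 3 included, the first pair correlated at 0.539 and the second at 0.988. All other pairs were identical at 64.4% to 78.2%.

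**Figure D4:**
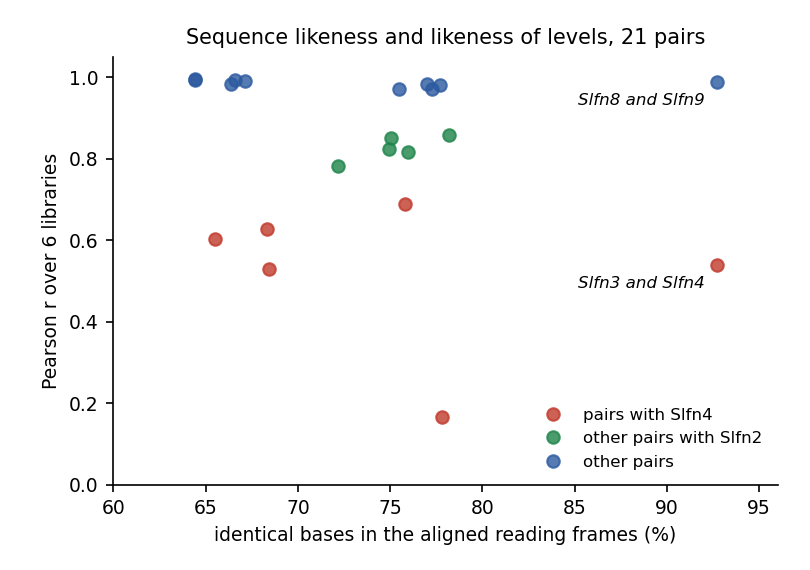
Identity of the aligned longest reading frames (x axis, percent of bases) against the Pearson correlation of log2(FPKM + 1) over 6 libraries (y axis), one point for each of the 21 pairs of Schlafen genes, with pairs that include *Slfn4* in red and other pairs that include *Slfn2* in green. The 2 pairs at 92.7% identity have correlations of 0.539 (*Slfn3* and *Slfn4*) and 0.988 (*Slfn8* and *Slfn9*). Control library 3 is the lowest library of *Slfn3* and of *Slfn4*. In control libraries 1 and 2 *Slfn4* is above and *Slfn3* below every CKO library.

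The likeness of the sequences also limits how sharply the members can be told apart by reads. In GENCODE M21 transcripts, 14.6% of the 50-base windows of *Slfn8*, 11.2% of those of *Slfn9*, 8.15% of those of *Slfn4*, 7.39% of those of *Slfn3* and 4.27% of those of *Slfn2* occurred in another family transcript. For *Slfn1* it was 0.606%, and *Slfn5* shared none. How reads with several matches were counted is not given in the sources used here, so *Slfn8* against *Slfn9* and *Slfn3* against *Slfn4* are the least certain. The reading frames held 337 codons in *Slfn1*, 378 in *Slfn2*, 640 in *Slfn3*, 602 in *Slfn4*, 884 in *Slfn5*, and 910 in both *Slfn8* and *Slfn9*, which follows the division into short, intermediate and long members.

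The genes next to the cluster gave a view of the surrounding chromosome. In the RefSeq order the family runs *Slfn5*, *Slfn9*, *Slfn8*, *Slfn2*, *Slfn1*, *Slfn4*, *Slfn3*. The nearest tested genes before the cluster were *Rffl*, a ubiquitin ligase, at a log2 fold change of 0.29 (adjusted p = 0.355 by limma), and *Nle1*, a ribosome assembly factor, at -0.18 (adjusted p = 0.422). After it came *AI662270* at -0.31 (adjusted p = 0.333). None of these 3 genes passed the threshold, and the CKO libraries were above all controls in none. In *Nle1* they were below all controls by a narrow margin, at 2.444 to 2.846 against 2.853 to 3.715 FPKM.

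Among all tested genes, those most like each member over the 6 libraries were named by the correlation of log2(FPKM + 1). For *Slfn1* they were *Usp18* (r = 0.997), *Oas3* (0.993) and *4933412E12Rik* (0.993), of which *Usp18*, a protease that removes ISG15, and *Oas3*, an oligoadenylate synthetase, are interferon-stimulated. For *Slfn9* they were *Rsad2* (r = 0.999), which encodes viperin, *Cmpk2* (0.998), a mitochondrial nucleotide kinase, and *Fam53c* (0.998). For *Slfn5* they were *Zup1* (r = 0.998), *Cmpk2* (0.996) and *Ankle2* (0.995). For *Slfn8* they were *Gm5431* (r = 0.997), *Tor3a* (0.996) and *Ube2l6* (0.996), the latter an ISG15-conjugating enzyme. For *Slfn3* they were *Ccnj* (r = 0.998), *Dtx3l* (0.997) and *Treml2* (0.993). For *Slfn2* they were *Ier5* (r = 0.991), an immediate early gene, *Abcg1* (0.991), a cholesterol exporter, and *Cds1* (0.986). For *Slfn4* they were *Bfar* (r = 0.994), *Insig1* (0.990), a regulator of cholesterol synthesis, and *Ccnyl1* (0.989). With 6 libraries such correlations are easily high among many genes, and between 23 genes (*Slfn4*) and 226 genes (*Slfn9*) had one above 0.95.

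The interferon-stimulated genes, the wider group to which the family belongs, lay on the same side. All 34 of the list that were tested had a log2 fold change above 0, with a median of 0.93, against -0.11 over all tested genes and 36.5% of those above 0. By limma 1 of 34 passed the threshold, where 2.57% of all tested genes passed as higher. It was *Parp14*, an ADP-ribosyltransferase, at 342 ± 27.5 FPKM in the CKO libraries against 199 ± 29.2 FPKM in the controls (SD, n = 3, log2 fold change 0.79, adjusted p = 0.0279). At an unadjusted p under 0.05, 23 were higher, against 9.93% of all tested genes. With the block 16 passed, against 3.9% of all tested genes. Without control library 1 it was 12, against 3.08%, and without control library 3 it was 8, against 5.68%. Without CKO library 3 it was 2, against 1.92%, and without CKO library 1, CKO library 2 or control library 2 it was 0, against 0.133%, 0.199% and 0.0111%. Control library 3 was the lowest of the 6 libraries for 34 of 34 of these genes.

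Of the ligands, receptors and signalling genes of interferon, 16 of 18 were tested and 3 passed the threshold, all as higher, where 2.57% of all tested genes did so. They were *Irf1*, a transcription factor that interferon and NF-kB induce, at a log2 fold change of 1.27 (adjusted p = 0.00651 by limma), *Stat2*, a subunit of the factor that binds the response element, at 1.26 (adjusted p = 0.0383), and *Irf5*, a transcription factor downstream of Toll-like receptors, at 0.78 (adjusted p = 0.0297). *Irf9*, another subunit of that factor, was at 0.17 and did not pass (adjusted p = 0.426). *Irf7*, which sustains interferon production, was at 1.08 (adjusted p = 0.160). *Ifnb1*, the interferon beta gene, did not reach the filter: it was at 0.587, 0.831 and 1.14 FPKM in the CKO libraries, against 0.197, 0.200 and 0.215 FPKM in the controls, on 19 to 36 and 6 reads per library. Of 7 tested proliferation genes 0 passed by limma, none had an unadjusted p under 0.05, and the median log2 fold change was 0.10. Without control library 3, 1 of the 7 passed as higher, against 5.68% of all tested genes, and 0 as lower.

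**Figure D5:**
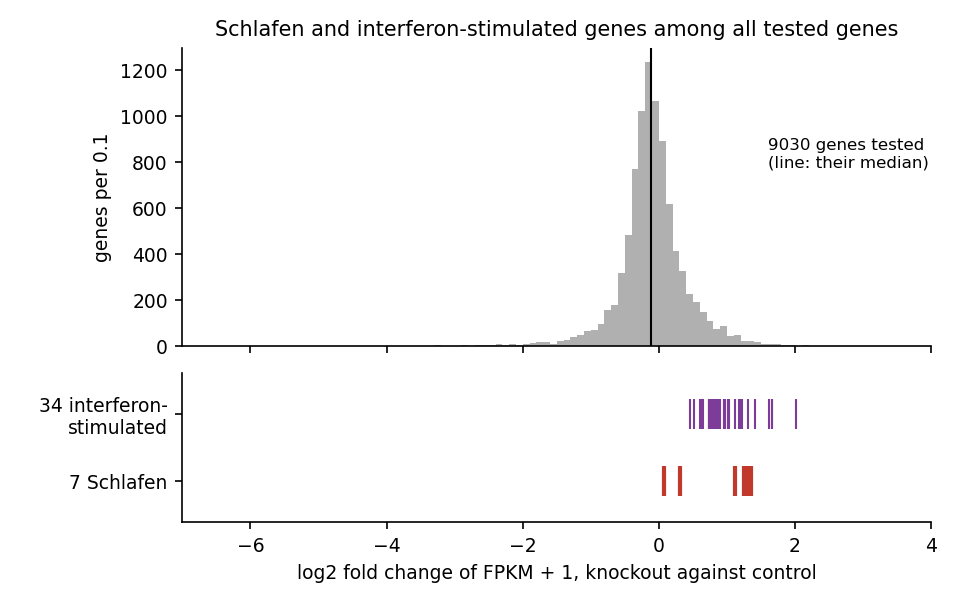
Log2 fold change of FPKM + 1 (knockout against control) as a histogram of all 9030 tested genes with their median of -0.11 as a line (top), and as one tick per gene for the 34 interferon-stimulated genes and the 7 Schlafen genes (bottom). The ticks of both groups lie above 0, those of *Slfn4* (0.07) and *Slfn2* (0.31) are the lowest of the Schlafen genes, and the other 5 lie between 1.11 and 1.35.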

How the data were processed

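RNA of PEMs was sequenced in 3 knockout and 3 control libraries, which were grouped by their titles. The aligner, counting tool and annotation are not given in the sources used here, and the submitters' processing notes name the build mm9. The FPKM values were deposited by the authors for each gene and library. The signal columns the authors deposited are group means of reads divided by size factors. Columns with the fold change, p-value and q-value of the authors' own comparison were not used. Whole reads were recovered from FPKM and group means (100% of values whole within 0.05) and used for depth and for voom.

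Since no counts were given, the test was limma 3.58.1 in R 4.3.3 on log2(FPKM + 1), with a mean-variance trend in eBayes, for the 9030 genes that had a mean of at least 1 FPKM in a group, and p-values were adjusted over all of them (Benjamini-Hochberg, threshold 0.05). A fold change on this scale understates the change of low genes. The fit was tested on simulated reads. The members and lists were chosen with earlier results of these data known. The genes named are the 7 members, *Timd4* and *Lyz2*, the 3 genes most like each member, the 2 nearest tested genes on each side of the cluster, and, from 2 interferon lists, those past the threshold (at most 3 each way) with *Ifnb1*, *Irf7* and *Irf9*. Some genes that this rule names are not reported here. *Slfn5os* and the T cell markers were added after their values were seen. RefSeq entries were found for 9006 of the 9030 tested symbols.

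Deviations from the group means correlated at 0.11, 0.11 and 0.30 between libraries of the same number, and at -0.33 to 0.29 between others. These ranges overlapped, so this check does not establish that the numbers pair the libraries. Neither the labels nor the paper state a pairing. The fits with the replicate number as a block rest on a pairing that is not established. The alternatives were no filter, at least 10 reads in every library, a pseudocount of 0.1, the block, a rescaling by the median of ratios, voom, thresholds of 0.01 and 0.1, and each library left out.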

Additional observations from a re-analysis of the deposited data

How the results depend on the processing

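Of the 12 other fits, 3 changed how many Schlafen genes passed the threshold. With the replicate block it was 5 of 7, and with 1 library left out it was 0 to 5 (4 without control library 1, 5 without control library 3). At a threshold of 0.1 on the adjusted p it was 4 of 7. The log2 fold changes of *Slfn1*, *Slfn2*, *Slfn3*, *Slfn5*, *Slfn8* and *Slfn9* stayed above 0 in all 12 fits, while that of *Slfn4* was above 0 in 9 and ran from -0.91 to 0.59 over the fits without 1 library. Below 0 it was -0.13 (CKO library 1 left out), -0.01 (CKO library 2) and -0.91 (control library 3). The count over all genes ran from 8 (without control library 2) to 1278 (without control library 3), with 30 and 63 without CKO libraries 1 and 2, beside 660 with all libraries. The count of interferon-stimulated genes, 1 of 34 with all libraries and 16 with the replicate block, ran over the fits without 1 library from 0 (without CKO library 1, CKO library 2 or control library 2) to 12 (without control library 1). The split of the 660 was 232 higher and 428 lower, and became 343 and 326 after rescaling by the median of ratios and 298 and 291 by voom. *Timd4* (log2 fold change -2.66, adjusted p = 0.0715) passed the threshold with a pseudocount of 0.1 (-4.00, adjusted p = 0.0458), with the replicate block (-2.66, adjusted p = 0.0436) and without control library 3 (-3.63, adjusted p = 0.000410), and ran from -3.63 to -2.01 without 1 library. The causes were not tested. The lowest count of a member was 331 reads (*Slfn3*, control library 3).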
